A study of Mus musculus with 12 samples.

Results

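The collagen genes of 12 mammary tumors were examined by RNA-seq. All protein-coding genes named Col, a number, a and a number were taken, without the chains of collagen VI. This gave 38 of the 54532 genes in the count table, of which 11 encode fibrillar collagens, 8 encode collagens of the basement membrane and 19 encode other collagens. The tumors came from female MMTV-Neu mice, which carry a Neu (Erbb2) transgene without an activating mutation, driven in the mammary gland by a viral promoter (MMTV). Groups of 4 tumors were from mice on control diet, on MSU-42011 (100 mg/kg diet) or on bexarotene (100 mg/kg diet). Per the methods of the study, the diets began when a tumor reached 4 mm in diameter and lasted 10 days, and RNA was taken from frozen pieces of the tumors. MSU-42011 and bexarotene are agonists of the retinoid X receptors (RXRs), nuclear receptors that bind DNA as dimers, and bexarotene is used to treat cutaneous T-cell lymphoma. The labels give neither the age of the mice nor a link between tumors and litters or processing days, so p-values measure only the spread between these tumors.

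Collagens are triple helices wound from chains with glycine repeated along their length, and the chains of a helix are often the products of different genes. Fibrillar collagens pack into the fibers of connective tissue and are made mainly by fibroblasts, while type IV collagen forms the sheet of the basement membrane that separates epithelium and vessels from the stroma. The other collagens decorate fibrils, form anchoring fibrils or hexagonal networks, or span the cell membrane. In breast tumors, type I and type III collagen are known as stromal products. The coding exons showed this split in structure. Of 649 coding exons of the fibrillar genes (longest coding transcript in GENCODE M21), 47.0% were 54 bases long, compared with 4.24% of 377 in the basement membrane genes and 17.2% of 761 in the others. Within the last group the chains of type IX collagen and Col22a1 were near the fibrillar genes, with 36.8% for Col9a1, 43.8% each for Col9a2 and Col9a3 and 44.4% for Col22a1.

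Of the 38 genes, 30 had enough reads to be tested, namely 9 fibrillar, 7 basement membrane and 14 other genes. The 8 that did not were Col2a1 and Col24a1 (fibrillar), Col4a3 (basement membrane) and Col17a1, Col19a1, Col23a1, Col26a1 and Col28a1 (others), with 0 to 82 reads in any tumor. Total counts per tumor ran from 16583413 to 25925027, so that 3 reads, taken as the floor, equal 0.116 to 0.181 CPM (counts scaled to the total of the library). The first bexarotene tumor (bexarotene replicate 1) stood apart from the rest. On the first principal component of all tested genes (33.6% of the variance) it lay at -115, whereas the other tumors lay between -16.2 and 34.2, and its median correlation with the other tumors was 0.915 compared with 0.961 or more. It was the highest tumor for 15 of the 30 tested collagen genes and for 19.1% of all tested genes. MSU-42011 replicate 3 was highest for 4 (10.5% of all genes) and second for 10, and control replicate 2 was lowest for 11 and highest for 3 (9.65% of all genes). Most results are therefore given with and without bexarotene replicate 1.

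The most abundant collagen transcript in 11 of the 12 tumors was Col9a1, a chain of type IX collagen, which is best known from the surface of cartilage fibrils. Levels are compared between genes as deposited FPKM, which is scaled to gene length, and within a gene as normalized CPM. Mean Col9a1 over the 12 tumors was 1049 FPKM, followed by Col9a2 with 259 FPKM, Col1a1 with 229 FPKM, Col3a1 with 179 FPKM and Col4a1 with 158 FPKM. The means of Col1a1 and Col3a1 rest on bexarotene replicate 1, in which Col1a1 (2091 FPKM), Col3a1 (1793 FPKM) and Col1a2 (1423 FPKM) exceeded Col9a1 (854 FPKM). This order depends on the length used. The FPKM length was 5.43 times below the listed gene length for Col3a1 and Col1a2 and 2.36 times for Col9a1. In CPM per kilobase of the listed length, only Col1a1 exceeded Col9a1 in this tumor. Without bexarotene replicate 1 the order in FPKM was Col9a1 (1067 FPKM), Col9a2 (267 FPKM), Col4a1 (136 FPKM), Col11a1 (108 FPKM), Col4a2 (64.3 FPKM) and Col1a1 (60.1 FPKM). Col9a1 was also first among the collagen genes in CPM per kilobase of the listed gene length, and it ranked at 25 among all 15504 tested genes in CPM and at 92 in FPKM. Its reads numbered 32998 to 63644 per tumor.

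Col9a1 (ENSMUSG00000026147, chromosome 1, 24177610 to 24252684, plus strand; coordinates as in the file, which match GRCm38) was also the most even of the abundant collagens. Its normalized CPM was 1958, 2399, 2476 and 2636 in the control tumors, 2127, 2518, 2067 and 2667 in the MSU-42011 tumors and 1756, 1804, 2251 and 2473 in the bexarotene tumors. The groups overlapped, and the highest tumor exceeded the lowest by 1.52-fold. The log2 fold change was -0.01 (SE 0.17, 95% interval -0.37 to 0.34) for MSU-42011 against control, -0.19 (SE 0.17, -0.55 to 0.17) for bexarotene against control and 0.18 (SE 0.17, -0.18 to 0.54) for MSU-42011 against bexarotene. The 250 bases before the start of Col9a1 are shown because no other collagen gene was as abundant (RefSeq, GRCm38.p6, chr1:24177360-24177609, plus strand, 5′ to 3′). The capitals mark TGACCT, the reverse complement of AGGTCA, the letters to which each receptor of an RXR dimer binds.
Col9a1: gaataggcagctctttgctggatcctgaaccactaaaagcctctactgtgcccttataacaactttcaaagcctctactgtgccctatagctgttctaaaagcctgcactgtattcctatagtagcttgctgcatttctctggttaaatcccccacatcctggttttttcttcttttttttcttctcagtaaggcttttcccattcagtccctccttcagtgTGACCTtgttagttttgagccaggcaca
The match lay 28 bases before this start, while the 250 bases before a second RefSeq start of Col9a1, at 24195203, held none. A search for AGGTCA on both strands of the RefSeq windows, which run from 250 bases before to 50 bases after each start, found it in 22.6% of 31 windows of 29 collagen genes and in 16.3% of 32851 windows in all. A match of these letters is a description and was not tested as a binding site.

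The partners of Col9a1 were even as well. Col9a2, the second chain of type IX, measured 305, 367, 447 and 420 CPM in control, 319, 320, 417 and 461 CPM in MSU-42011 and 235, 255, 483 and 289 CPM in bexarotene tumors. Col9a3, the third chain, measured 86.1, 145, 78.8 and 80.5 CPM in control, 69.7, 82.1, 98.6 and 76.1 CPM in MSU-42011 and 51.7, 78.8, 80.7 and 74.0 CPM in bexarotene tumors. All 3 genes were lowest in bexarotene replicate 1, and the groups overlapped for each. Col11a1, a fibrillar chain found with type IX in cartilage, measured 322, 281, 289 and 301 CPM in control, 319, 148, 382 and 360 CPM in MSU-42011 and 265, 124, 465 and 164 CPM in bexarotene tumors. Its control tumors lay close together, while the tumors of both agonist groups spread to either side of them.

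Col2a1, the chief fibrillar collagen of cartilage and the usual partner of types IX and XI, was almost absent. It had 0 to 20 reads in 11 tumors and 63 reads in bexarotene replicate 1. Among 8 markers of cartilage and bone, Ibsp had no read in any tumor, and Acan, Matn1 and Bglap were at 0.330 CPM or less in every tumor. Runx2 (0.962 to 5.92 CPM) and Sp7 (0.330 to 2.94 CPM), transcription factors of bone-forming cells, were low, and Sp7 was at -1.19 on the log2 scale for MSU-42011 against control (edgeR, unadjusted p = 0.0214). The MSU-42011 tumors lay below all control tumors for Sp7, which held for 0.806% of all genes. Sox9, a transcription factor of chondrocytes that mammary epithelium also expresses, lay between 87.4 and 137 CPM.

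Comp, a cartilage oligomeric matrix protein that binds collagens, differed between the groups. It lay between 34.0 and 281 CPM in control, 189 and 699 CPM in MSU-42011 and 616 and 1551 CPM in bexarotene tumors. The bexarotene tumors were all above the control tumors, with a log2 fold change of 2.52 (edgeR, unadjusted p = 0.000773) and of 1.51 for MSU-42011 (unadjusted p = 0.0174), whose tumors overlapped those of the control group, and no gene passed the adjusted threshold in either comparison. The sum of the 8 markers, carried mainly by Comp and Sox9, was 159 to 422 CPM in control, 299.8 to 792 CPM in MSU-42011 and 716 to 1682 CPM in bexarotene tumors, with the lowest bexarotene value in replicate 1 and the highest in replicate 3.

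The chains of types I, III and V formed a contrasting set, since their levels spanned a wide range. Col1a1 (chromosome 11, 94936224 to 94953042), the major chain of type I collagen, measured 162, 26.3, 59.9 and 90.3 CPM in control tumors, 88.3, 54.5, 159 and 118 CPM in MSU-42011 tumors and 3561, 280, 82.1 and 52.4 CPM in bexarotene tumors. Col1a2 (chromosome 6, 4504814 to 4541544), its partner chain, measured 122, 17.3, 41.3 and 71.5 CPM in control, 70.1, 47.0, 154 and 85.5 CPM in MSU-42011 and 3114, 247, 65.9 and 37.6 CPM in bexarotene tumors. Both genes were highest in bexarotene replicate 1, second in bexarotene replicate 2 and lowest in control replicate 2, and the other bexarotene tumors lay within the range of the control tumors.

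Col3a1, which forms type III collagen of reticular fibers, measured 85.3, 14.2, 32.8 and 50.1 CPM in control, 40.8, 35.2, 64.3 and 50.8 CPM in MSU-42011 and 3100, 207, 36.5 and 28.4 CPM in bexarotene tumors. Col5a2, a chain of type V that helps to set fibril diameter, measured 29.0, 5.92, 8.61 and 13.1 CPM in control, 16.99, 8.42, 44.6 and 14.5 CPM in MSU-42011 and 609, 42.7, 13.2 and 7.91 CPM in bexarotene tumors. The same tumor stood out in each. Over the 12 tumors, the highest value exceeded the lowest by 135-fold for Col1a1, 180-fold for Col1a2, 219-fold for Col3a1, 103-fold for Col5a2 and 114-fold for Col5a1, whereas without bexarotene replicate 1 these ranges were 10.6-fold, 14.3-fold, 14.6-fold, 7.53-fold and 8.86-fold.

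The stretch before Col3a1 is shown because this gene had the widest range of the fibrillar collagens (RefSeq, GRCm38.p6, chr1:45311288-45311537, plus strand, 5′ to 3′). Capitals mark ACAAAG, the core letters of sites for SOX factors, and TATAAA, the letters of a TATA box.
Col3a1: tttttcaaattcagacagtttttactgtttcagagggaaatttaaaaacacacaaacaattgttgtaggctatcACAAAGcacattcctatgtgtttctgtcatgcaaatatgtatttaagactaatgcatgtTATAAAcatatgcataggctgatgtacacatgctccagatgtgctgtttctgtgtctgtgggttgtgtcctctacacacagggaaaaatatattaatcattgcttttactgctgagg
ACAAAG lay 176 bases and TATAAA 117 bases before the start. On both strands, ACAAAG was in 16.1% of the collagen windows and 18.7% of all windows, TATAAA in 16.1% and 13.6%, and CCAAT, the letters of the CCAAT box, in 38.7% and 37.4%.

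**Figure D1:**
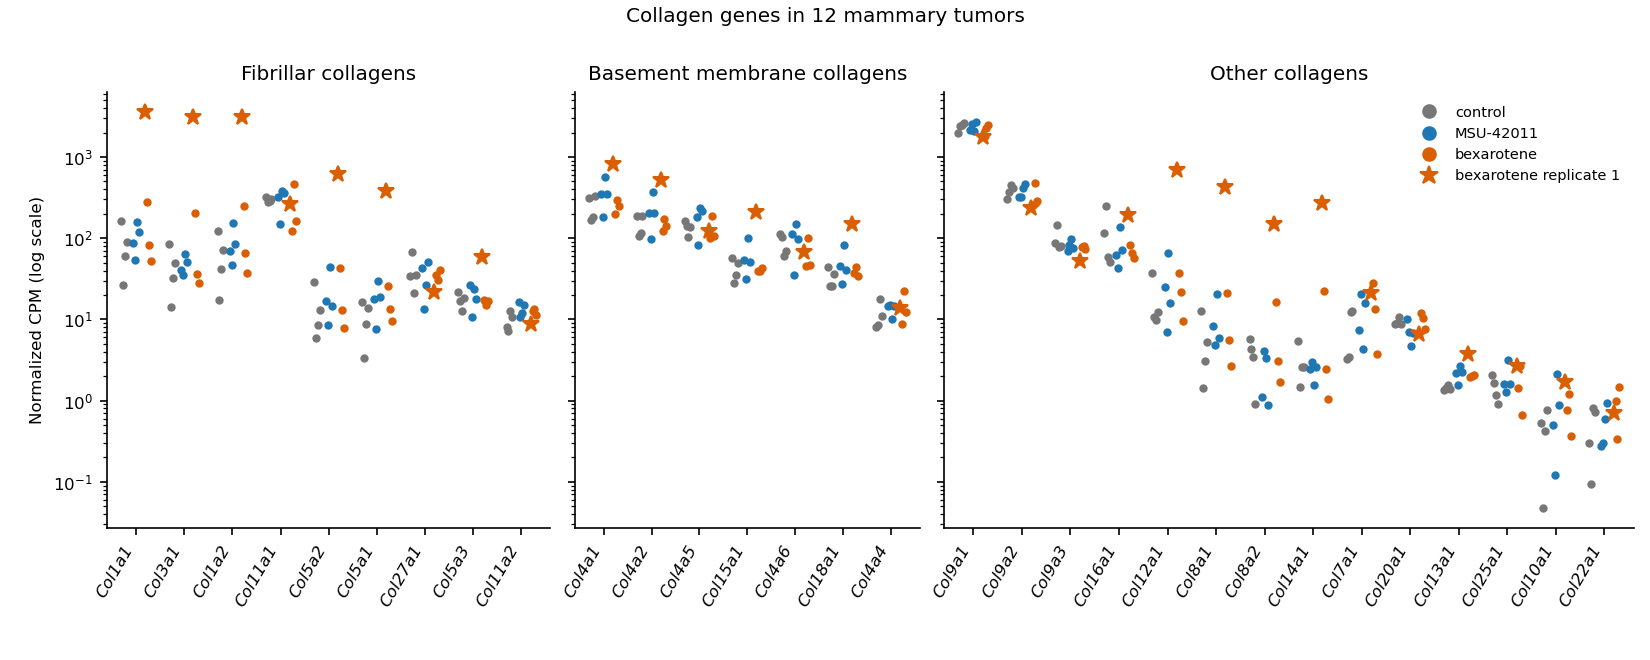
Normalized CPM (log axis) of the 30 tested collagen genes in each of 12 tumors, by collagen group and ordered by mean FPKM; points are tumors, coloured by diet, and the star is bexarotene replicate 1. The star lies far above all other tumors for Col1a1, Col3a1, Col12a1 and Col8a1, but among or below them for Col9a1, Col11a1 and Col4a5.

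Among the other collagens, the genes that stood out in the same way were the fibril-associated Col12a1 and Col14a1, whose products bind type I fibrils, and both chains of type VIII, a network collagen of vessel walls. Col12a1 measured 36.9, 10.6, 9.78 and 12.2 CPM in control, 25.2, 6.97, 65.2 and 16.1 CPM in MSU-42011 and 695, 36.9, 21.99 and 9.69 CPM in bexarotene tumors. Col14a1 measured 5.40, 1.47, 2.62 and 2.59 CPM in control, 2.48, 3.03, 1.57 and 2.598 CPM in MSU-42011 and 274, 22.7, 2.47 and 1.04 CPM in bexarotene tumors. The fold between the highest and the lowest tumor was 263 for Col14a1 and 303 for Col8a1, the widest among the tested collagens.

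Col16a1, a further fibril-associated collagen, had another order. It measured 117, 252, 58.3 and 51.1 CPM in control, 62.0, 42.7, 138 and 70.8 CPM in MSU-42011 and 195, 82.2, 64.95 and 56.5 CPM in bexarotene tumors. Control replicate 2, the lowest tumor for type I collagen, was the highest for Col16a1. Col7a1, the collagen of anchoring fibrils, ranged from 3.26 to 28.4 CPM and was highest in bexarotene replicate 2.

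The basement membrane genes varied less. Col4a1 (chromosome 8, 11198423 to 11312826) measured 317, 170, 184 and 329 CPM in control, 348, 182, 571 and 351 CPM in MSU-42011 and 822, 197, 297 and 248 CPM in bexarotene tumors. Col4a2 (chromosome 8, 11312805 to 11449287), its partner in the common type IV helix, measured 190, 107, 116 and 190 CPM in control, 205, 97.9, 366 and 204 CPM in MSU-42011 and 515, 123, 173 and 143 CPM in bexarotene tumors. For both, bexarotene replicate 1 was highest and MSU-42011 replicate 3 second, and the range over all tumors was 4.84-fold and 5.26-fold.

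Col4a5 and Col4a6, chains of a tissue-restricted type IV helix, did not share this order. Col4a5 measured 165, 141, 103 and 139 CPM in control, 180, 82.9, 235 and 216 CPM in MSU-42011 and 122, 99.4, 186 and 107 CPM in bexarotene tumors. Col4a6 measured 111, 105, 60.5 and 70.5 CPM in control, 114, 35.6, 152 and 96.7 CPM in MSU-42011 and 67.1, 45.6, 99.8 and 46.7 CPM in bexarotene tumors. Both were highest in MSU-42011 replicate 3 and lowest in MSU-42011 replicate 2, and bexarotene replicate 1 was in the midst of the tumors.

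Col15a1 encodes a proteoglycan collagen at the basement membrane. It measured 56.4, 27.8, 35.1 and 49.2 CPM in control, 53.7, 31.9, 101 and 50.7 CPM in MSU-42011 and 209, 39.8, 39.1 and 42.7 CPM in bexarotene tumors. Col18a1, the source of endostatin, had the same highest and second-highest tumor, at 148 and 83.4 CPM. Its value is uncertain, because its gene overlaps Slc19a1 on the opposite strand (12678 and 6400 reads in all) and the strand setting of the counting is not given in the sources used here. The same holds for Col10a1, which lies within Nt5dc1 on the opposite strand (200 and 4128 reads), and Col20a1 overlaps another transcript on its own strand (2055 and 2028 reads).

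Summed over genes, both the total and the make-up of the collagen transcripts set bexarotene replicate 1 apart. All 38 genes made up 0.240 to 0.270% of the summed FPKM in control, 0.230 to 0.345% in MSU-42011 and 0.217 to 1.13% in bexarotene tumors, where the highest value was that of bexarotene replicate 1. The chains of type IX held 61.2 to 77.7% of the collagen FPKM in control, 55.9 to 80.4% in MSU-42011 and 58.9 to 76.9% in the bexarotene tumors 2 to 4. In bexarotene replicate 1 they held 13.2%, and types I, III and V held 69.3%, or 12.1% and 64.2% of the collagen reads. Of the summed FPKM of all genes, type IX held 0.149% in this tumor. That share was 0.151 to 0.203% in control, 0.172 to 0.220% in MSU-42011 tumors and 0.137% in bexarotene replicate 2. By collagen FPKM, bexarotene replicate 2 was next for types I, III and V, with 22.1%, compared with 1.84 to 10.8% in control and 4.27 to 9.22% in MSU-42011 tumors. These shares count transcripts in a piece of tissue, in which fewer cells of a type and less RNA per cell cannot be told apart.

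**Figure D2:**
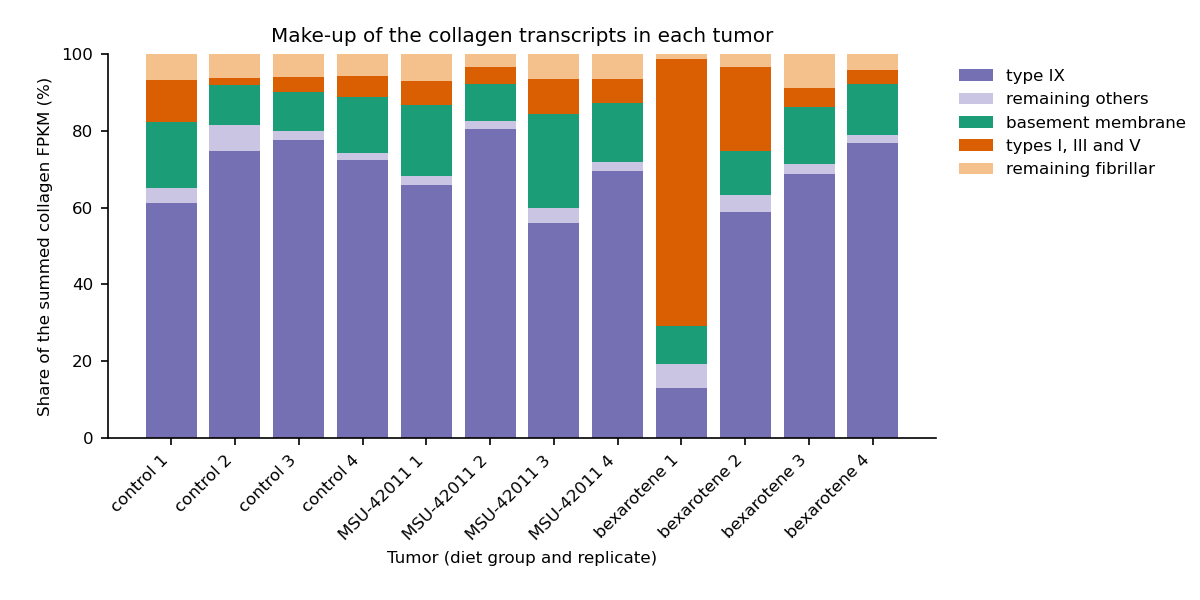
Share of the summed collagen FPKM (%) held by each set of collagen genes, 1 bar per tumor. Type IX fills most of each bar except that of bexarotene replicate 1, where it holds 13.2% and types I, III and V hold 69.3%.

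Ratios between chains that share a helix varied less than the levels of the chains for some collagens and not for others. The FPKM ratio of Col1a1 to Col1a2 was 1.62 to 1.95 in control, 1.33 to 1.78 in MSU-42011 and 1.46 to 1.79 in bexarotene tumors, a 1.47-fold range for a pair whose levels ranged over 135-fold and 180-fold. The ratio of Col4a1 to Col4a2 ran from 1.98 to 2.36, a 1.19-fold range. These genes start head to head and their annotated transcripts overlap by 22 bases, shown here as the stretch common to both starts (RefSeq sequence, GRCm38.p6, chr8:11312805-11312826, plus strand, 5′ to 3′, with no letters in capitals).
Col4a1 and Col4a2: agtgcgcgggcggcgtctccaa
Col4a4 and Col4a3 are a like pair with 71 bases between their starts, and Col4a6 and Col4a5 have 1308 bases between them. The ratio of Col4a5 to Col4a6 ran from 1.12 to 1.93, over a 1.73-fold range, and that of Col5a1 to Col5a2 from 0.352 to 0.822, over 2.33-fold.

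Type VIII had the widest range of the ratio. The ratio of Col8a1 to Col8a2 ran from 0.197 in control replicate 2 to 4.49 in MSU-42011 replicate 1, a 22.8-fold range that was the same without bexarotene replicate 1, when the levels of the chains ranged over 14.7-fold and 18.6-fold. It was 3.603 and 3.97 in 2 further MSU-42011 tumors and 0.715 in the last, and 0.754 to 1.70 in bexarotene tumors. For 3 tumors Col8a2 rested on 20 or 21 reads. Col3a1 to Col1a1, which compares a pair of separate collagens, ran from 0.397 to 0.858, and the ratio was highest in bexarotene replicate 1. The ratios of all pairs overlapped between the diet groups. The ratios of Col9a1 to Col9a2 (3.02 to 5.52), of Col9a1 to Col9a3 (12.1 to 25.7) and of Col11a1 to Col11a2 (11.1 to 44.8) were added after the levels had been seen. The last ranged over 4.06-fold, more than the level of Col11a1 (3.77-fold) or of Col11a2 (2.26-fold). The size of a ratio depends on the lengths used, so only its spread is compared here.

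**Figure D3:**
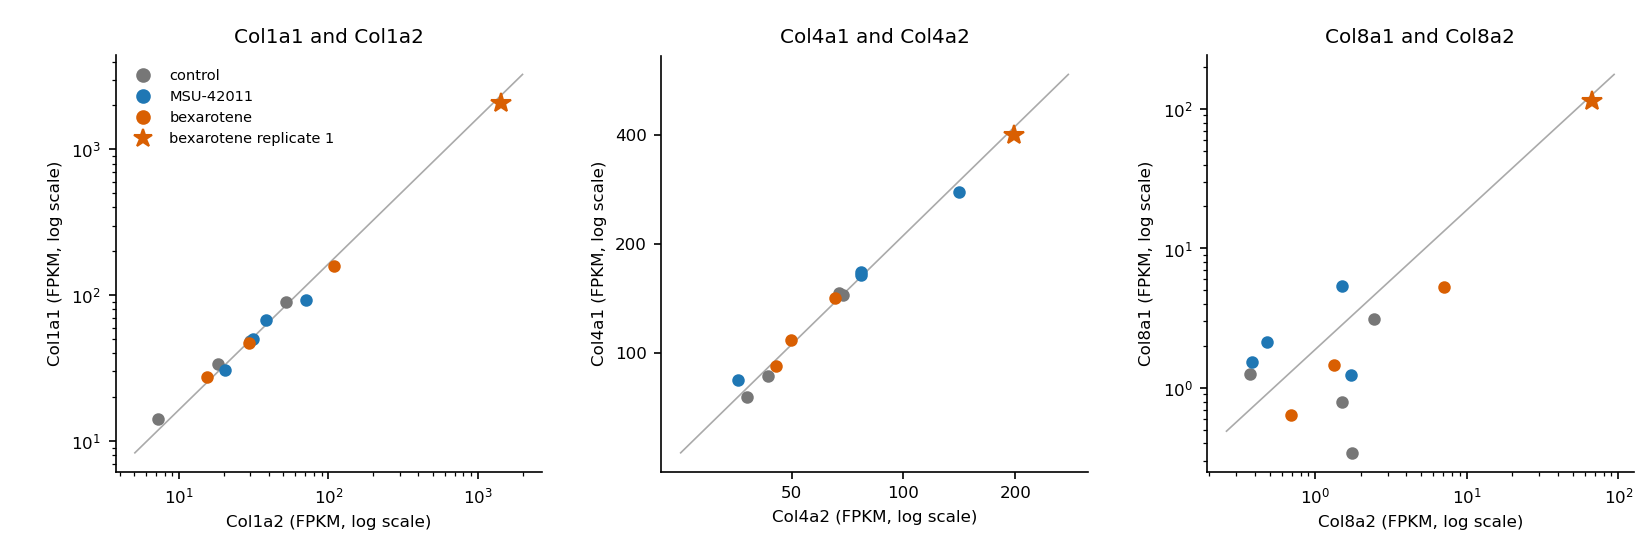
FPKM of partner chains in each of 12 tumors (both axes log scaled), with the star for bexarotene replicate 1 and a grey line at the mean ratio. Points follow the line for Col1a1 and Col1a2 (ratio 1.33 to 1.95) and for Col4a1 and Col4a2 (1.98 to 2.36), and scatter around it for Col8a1 and Col8a2 (0.197 to 4.49).

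The diets were then compared gene by gene in the fit over all 15504 genes (edgeR quasi-likelihood F test, Benjamini-Hochberg adjustment). No collagen gene passed an adjusted p of 0.05 in any comparison, and neither did any other gene (0% of those tested). At an unadjusted p under 0.05 there were 657 genes among the 3 groups (4.24%), and 10 of the 30 collagen genes. The number of all genes at this level was 309 between MSU-42011 and control, 998 between bexarotene and control and 612 between the agonists. DESeq2 called 1, 6 and 14 genes in these comparisons, and Col14a1 between the agonists (adjusted p = 0.0497) was the collagen gene among them. Counts of collagen genes are read below against the percentage over all genes.

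For bexarotene against control, at an unadjusted p under 0.05, 10 of 30 collagen genes were higher and 0 lower with bexarotene, beside 4.48% of all genes higher and 1.96% lower. The 10 were Col1a1, Col1a2, Col3a1, Col5a1 and Col5a2 among the fibrillar genes and Col8a1, Col8a2, Col12a1, Col13a1 and Col14a1 among the others. Without bexarotene replicate 1, 0 of 30 reached that level, beside 3.3% of all genes in either direction. The log2 fold change was 3.55 (SE 1.17, unadjusted p = 0.009997) for Col1a1 and 4.21 (SE 1.29, unadjusted p = 0.00664) for Col3a1, each with an edgeR adjusted p of 0.762. Without that tumor these values were 0.71 (SE 0.62) and 1.00 (SE 0.65). The largest value was that of Col14a1, at 4.65 (SE 1.36, unadjusted p = 0.004935) with all tumors and 1.54 (SE 0.79, unadjusted p = 0.0739) without that tumor. The remaining genes apart from Col13a1 lay between 3.33 and 4.38 with all tumors and between 0.40 and 0.98 without it. By the exact two-sided permutation test of 4 against 4 tumors, whose smallest possible p is 0.0286, p was 0.2 to 0.4 for these 9 genes.

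As a group, the 9 tested fibrillar genes had a median log2 fold change of 3.33, with 7 higher and 2 lower, beside 55.3% of all genes higher, and it fell to 0.59 without bexarotene replicate 1. Col11a1 (-0.23, SE 0.37) and Col27a1 (-0.30, SE 0.41) were the lower genes. The 7 basement membrane genes had a median of 0.65 with all tumors and -0.05 without that tumor, so the direction was lost. The 14 other genes had a median of 0.81 and 0.45. The median over all tested genes was 0.03. The chains of type IX were lower with bexarotene, by 0.19 for Col9a1, 0.29 for Col9a2 and 0.45 for Col9a3 on the log2 scale, with unadjusted p of 0.264, 0.226 and 0.0506 in edgeR. Without bexarotene replicate 1, the lowest tumor for each, these log2 fold changes were -0.12, -0.17 and -0.33.

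**Figure D4:**
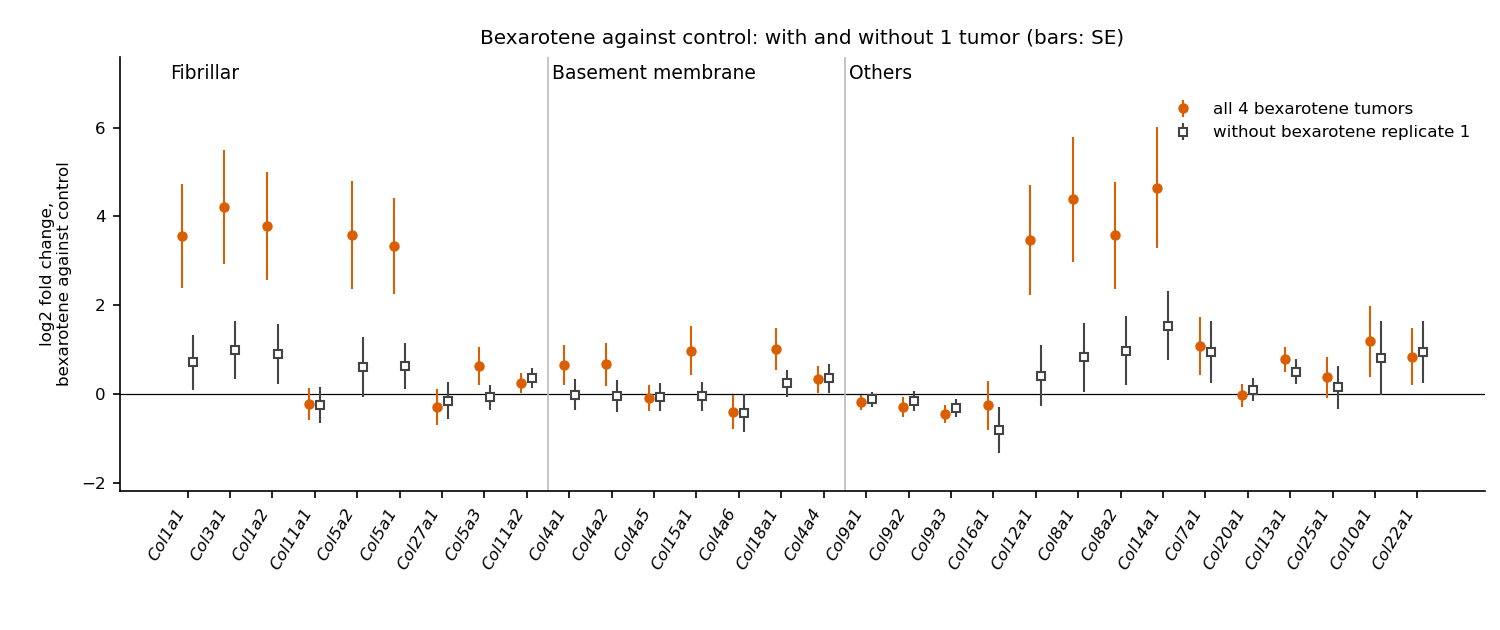
Log2 fold change of bexarotene against control (edgeR) for the 30 tested collagen genes, with all tumors (filled) and without bexarotene replicate 1 (open); bars are SE. The 9 genes above 3 on the axis fall to between 0.40 and 1.54 when that tumor is left out, and none is called after adjustment.

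For MSU-42011 against control, at an unadjusted p under 0.05, 0 of 30 collagen genes were higher and 0 lower, beside 1.14% and 0.851% of all genes. The fibrillar genes had a median log2 fold change of 0.31 with 8 of 9 higher, and Col1a1 was at 0.31 (SE 1.06, 95% interval -1.99 to 2.62). Without bexarotene replicate 1 the interval for Col1a1 was -0.94 to 1.57. All 7 basement membrane genes were higher with MSU-42011, with a median of 0.49, where 50.3% of all genes were higher and the median over all genes was 0.00155. They ranged from 0.20 for Col4a6 to 0.58 for Col18a1 (SE 0.47), with Col4a1 at 0.54 (SE 0.45) and Col4a2 at 0.53 (SE 0.47). None of these 7 reached an unadjusted p under 0.05 in edgeR, and the groups overlapped for each. Without bexarotene replicate 1, which adds to the shared estimate of the spread, the SE fell to 0.29 for Col18a1 (edgeR, unadjusted p = 0.0691). It fell to 0.32 for Col4a1 and 0.33 for Col4a2, and 0 of the 7 reached that level. Without MSU-42011 replicate 3, the second-highest tumor for 4 of them and highest for 2, the median was 0.20. The 14 other genes were split, with 7 higher and 7 lower and a median of 0.06. Col11a2, the partner of Col11a1, had the smallest p, with a log2 fold change of 0.48 (SE 0.22, unadjusted p = 0.0515 in edgeR). When bexarotene replicate 1 was left out of the shared estimate of the spread, Col11a2 (unadjusted p = 0.0376) and Col13a1 (unadjusted p = 0.0367) were 2 of 30 collagen genes at the unadjusted level, beside 2.63% of all genes.

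Among the 30 tested collagen genes, Col13a1 was the only one whose tumors did not overlap between groups, and this held for both agonists against control. Col26a1, too low to be tested, had 0 to 3 reads in control and 3 to 11 in MSU-42011 tumors. Col13a1 encodes a collagen that spans the cell membrane and is known from cell adhesion sites and the neuromuscular junction. It measured 1.37, 1.42, 1.55 and 1.38 CPM in control, 2.20, 1.58, 2.65 and 2.26 CPM in MSU-42011 and 3.73, 1.96, 2.03 and 2.08 CPM in bexarotene tumors. All agonist tumors were above all control tumors, though the nearest, MSU-42011 replicate 2 and control replicate 3, lay at 1.58 and 1.55 CPM and the values rest on 23 to 101 reads. Genes without overlap and higher made up 1.16% of all genes for MSU-42011 and 1.14% for bexarotene, and 1 of 30 collagen genes in each. Of the tested collagen genes, 0 were lower without overlap in either comparison (0.806% and 0.89% of all genes), and 0 lay apart between the agonists (0.632% of all genes higher and 0.535% lower with MSU-42011). The comparisons share the control tumors. The log2 fold change was 0.60 (SE 0.29, unadjusted p = 0.0566, edgeR adjusted p = 0.9999) for MSU-42011 and 0.78 (SE 0.29, unadjusted p = 0.0182, edgeR adjusted p = 0.762) for bexarotene, which became 0.50 (SE 0.28) without bexarotene replicate 1. The exact permutation p was 0.0286 for each, the smallest that 4 against 4 can give. Any gene whose groups do not overlap has this value, so it adds nothing to the lack of overlap. Directly compared, the agonists differed by -0.18 (95% interval -0.79 to 0.44).

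The sequence before Col13a1 is shown because its groups did not overlap (RefSeq, GRCm38.p6, chr10:61979109-61979358, minus strand, 5′ to 3′). Capitals mark TATAAA.
Col13a1: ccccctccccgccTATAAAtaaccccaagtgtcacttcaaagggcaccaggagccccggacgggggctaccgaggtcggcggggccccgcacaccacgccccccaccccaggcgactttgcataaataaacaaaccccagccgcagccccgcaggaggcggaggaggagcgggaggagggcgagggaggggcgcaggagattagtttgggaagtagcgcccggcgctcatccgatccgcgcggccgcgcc
TATAAA lay 237 bases before the start, and AGGTCA was not among the letters of this window on either strand.

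**Figure D5:**
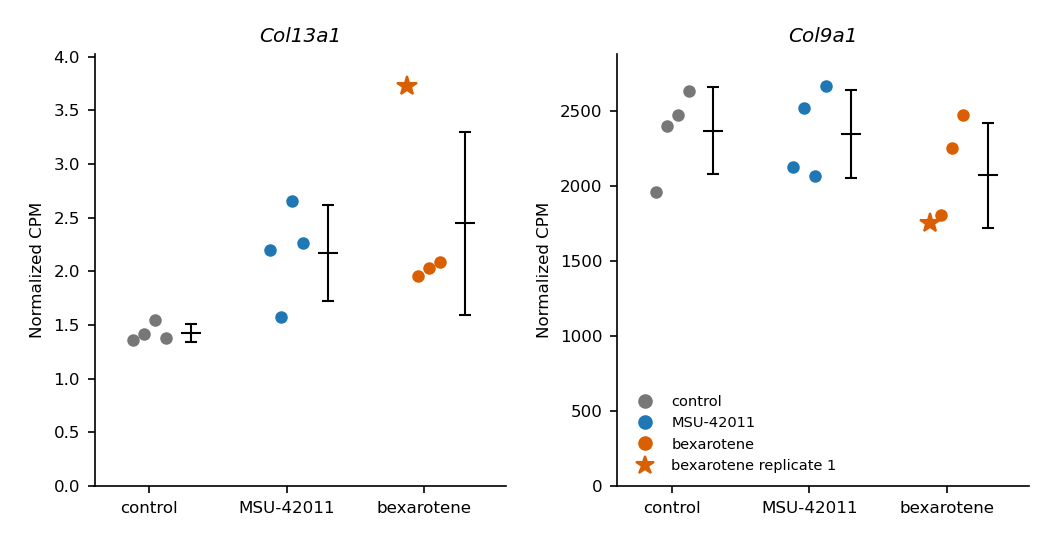
Normalized CPM of Col13a1 and Col9a1 in each tumor by diet, with the group mean and SD (black) and the star for bexarotene replicate 1. The control tumors lie at 1.37 to 1.55 CPM for Col13a1, below the 8 agonist tumors, while the groups overlap for Col9a1.

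The agonists, given at the same dose and for the same time, were also compared directly. At an unadjusted p under 0.05, 0 of 30 collagen genes were higher with MSU-42011 and 9 lower, beside 0.819% and 3.13% of all genes. The 9 were the genes higher with bexarotene against control apart from Col13a1, and the comparisons share the bexarotene tumors. The log2 fold change of Col1a1 was -3.24 (95% interval -5.74 to -0.74) with all tumors and -0.39 (-1.74 to 0.95) without bexarotene replicate 1. For Col5a1, Col8a1 and Col12a1 the sign turned without it, to 0.17, 0.02 and 0.31. Col14a1 remained lower, at -4.95 (SE 1.38) with all tumors and -1.85 (SE 0.79, unadjusted p = 0.0378 in edgeR) without that tumor, when it was 1 of 30 collagen genes at that level beside 3.08% of all genes. The second value rests on bexarotene replicate 2 (22.7 CPM), since replicates 3 and 4 (2.47 and 1.04 CPM) lay within or below the MSU-42011 tumors (1.57 to 3.03 CPM). The exact permutation p for Col14a1 was 0.4. Over all genes, 45.1% were higher with MSU-42011. The 95% interval for Col4a1 was -1.09 to 0.88.

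The machinery that makes, links, senses and degrades collagen was described with 4 lists. Of 21 genes for folding and modification in the endoplasmic reticulum, 4 were higher and 1 lower with bexarotene against control at an unadjusted p under 0.05, beside 4.48% and 1.96% of all genes for this and the next lists, and the median log2 fold change was 0.18. P4ha3, a subunit of prolyl 4-hydroxylase, was at 5.03 and Fkbp10, a folding chaperone, at 2.10. P3h2, a prolyl 3-hydroxylase active on type IV collagen, was at -0.80. Its bexarotene tumors (6.96 to 20.4 CPM) lay below all control tumors (21.5 to 28.2 CPM), which held for 0.89% of all genes. Of 10 tested genes of processing and crosslinking, 5 were higher and 0 lower, with Lox (4.55) and Loxl1 (4.22), which crosslink collagen and elastin, and Pcolce (2.37), an enhancer of propeptide removal. Of 9 tested receptors, 3 were higher and 0 lower, namely Mrc2 (3.88), which takes up collagen, Itga11 (3.64) and Ddr2 (2.91). Of 5 tested genes of breakdown, 2 were higher and 0 lower, namely Mmp2 (3.40) and Ctsk (3.58). For each of the named higher genes, 1 tumor held most of the CPM of the bexarotene group. P4ha3 reached 61.8 CPM with a group mean of 17.2 CPM, and Mrc2 reached 158 CPM with a group mean of 45.2 CPM. No gene of the 4 lists passed the adjusted threshold. Without bexarotene replicate 1 the medians of the 4 lists were -0.004, 0.20, 0.14 and -0.09, and 3, 0, 1 and 1 genes reached the unadjusted level in either direction, beside 3.3% of all genes.

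With MSU-42011 against control, the same lists had medians of 0.06, 0.31, 0.03 and -0.02, and 1, 0, 0 and 1 genes at an unadjusted p under 0.05, beside 1.14% of all genes higher and 0.851% lower. They were Colgalt2, a collagen galactosyltransferase, at 1.13 and Mmp13, a collagenase, at -1.20. Mmp13 was lower without overlap between the groups (0.806% of all genes), and Itga1 of the receptor list was higher without overlap (1.16% of all genes). With bexarotene against control, Colgalt2 was at 1.25 (edgeR, unadjusted p = 0.0235) and Mmp13 at -1.03 (edgeR, unadjusted p = 0.0723). The highest Lox value was 4.36 CPM among MSU-42011 tumors and 17.3 CPM in control. In bexarotene tumors Lox ran from 0.613 to 502 CPM, the latter in bexarotene replicate 1.

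Several sums of cell type markers were highest in the same tumor as the stromal collagens. The summed CPM of 9 fibroblast markers, among them Pdgfra, Dcn and Lum, was 36.8 to 81.5 in control and 38.8 to 115 in MSU-42011 tumors. In bexarotene tumors it was 1452 in replicate 1, 155 in replicate 2 and 43.3 to 46.1 in the other two. Bexarotene replicate 1 also had the highest sum of the 6 pericyte and smooth muscle markers (635, others 155 to 351), the 6 endothelial markers (412, others 72.8 to 201), the 4 macrophage markers (830, others 108 to 288), the 4 markers of other leukocytes (42.7, others 4.48 to 16.8, mostly Ptprc), the 5 adipocyte markers (84.0, others 12.1 to 32.2) and the 5 skeletal muscle markers (220, others 1.26 to 123). Cd3e, the T-cell marker of the leukocyte list, was at 1.19 CPM or less in bexarotene tumors and reached 1.66 CPM in control. The sum of the 7 luminal epithelial markers was lowest in bexarotene replicate 1, at 2727 compared with 4051 to 5510. Among them, Erbb2 was lowest in an MSU-42011 tumor (93.8 CPM) and Krt19 reached 28.2 CPM in a bexarotene tumor, compared with 1.85 CPM at most in control. The sum of the 5 myoepithelial markers was 30.1 in bexarotene replicate 1, within the 7.21 to 68.5 of the others. The part of these cell types in the collagen values was not tested.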

How the data were processed

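RNA of 12 mammary tumors was measured by poly(A) RNA-seq. The authors deposited raw read counts and FPKM of 54532 genes in tables of 1 column per tumor; the submitters' processing notes name STAR 2.6.1d, featureCounts 1.5.0-p3 and DESeq2, without roles. The genome build and strand setting are not given in the sources used here. Coordinates equal those of GENCODE M21 (GRCm38) for 98.3% of 54409 genes matched by ID, and for all 38 collagen genes. The authors' FPKM equals the count over the tumor total and a length that was 1 to 6.28 times below the listed gene length for these genes, which affects levels between genes and not within one.

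Counts were tested with edgeR 4.0.16 (R 4.3.3; TMM, filterByExpr, quasi-likelihood F test with 1 mean per diet group, Benjamini-Hochberg over 15504 genes, threshold 0.05); 95% intervals use its SE and degrees of freedom. Normalized CPM uses the TMM library sizes. The exact permutation test used log2(normalized CPM + 0.5). DESeq2 1.42.0 and limma 3.58.1 on log2(FPKM + 1) were alternatives, as were other filters and normalizations, a replicate block and leaving out each tumor. Genes given in full were those with an unadjusted p under 0.05 or groups without overlap; values in each tumor were given for up to 5 genes per collagen group with the highest mean FPKM, and a few more genes were chosen after their values were seen, as were the promoters. The collagen genes and lists were chosen with earlier results of these data known. The script was tested on simulated data. The authors' tables of their own comparisons were not used here. The floor of 3 reads covers counting error only.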

Additional observations from a re-analysis of the deposited data

Results flagged for a closer look

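Each tested collagen gene and each chain ratio was searched in each diet group of 4 tumors for a highest or lowest tumor far from the rest (the gap to the nearest tumor over the whole range, above Dixon's 95% critical value). Chance gives about 1 in 20 such groups if values are normally distributed, and 18 were found in 117. The CPM and ratios were searched without a log scale, so that rate may not hold for them. In 15 of the 18, the tumor was bexarotene replicate 1, at the high end. Its normalized CPM was 3561 for Col1a1, 3114 for Col1a2, 3100 for Col3a1, 378 for Col5a1, 609 for Col5a2 and 58.2 for Col5a3 among the fibrillar genes. It was 822 for Col4a1, 515 for Col4a2, 209 for Col15a1 and 148 for Col18a1 among the basement membrane genes, and 695 for Col12a1, 274 for Col14a1, 429.9 for Col8a1, 149.7 for Col8a2 and 3.73 for Col13a1 among the others. These genes share 1 library, so they are not separate observations. The remaining 3 were Col9a3 at 145 CPM in control replicate 2, Col12a1 at 36.9 CPM in control replicate 1 and Col4a4 at 10.2 CPM in MSU-42011 replicate 3, the last at the low end.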

How the results depend on the processing

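With DESeq2 at its defaults, 5 genes were called among the 3 diet groups, 1 between MSU-42011 and control, 6 between bexarotene and control and 14 between the agonists, where edgeR called 0 in each (657, 309, 998 and 612 at an unadjusted p under 0.05). Col14a1 was among the last, at -4.94 with a DESeq2 adjusted p of 0.0497. Col5a1, Col5a2, Col8a1 and Col12a1 received no DESeq2 p-value in any comparison. Collagen genes at an unadjusted p under 0.05 (10 among the 3 groups, 0 for MSU-42011, 10 for bexarotene and 9 between the agonists) numbered 6, 1, 8 and 5 with DESeq2 and 0, 1, 1 and 0 with limma on log2(FPKM + 1). The median of the other collagens became 0.40 for MSU-42011 with no filter on low counts and 0.17 for bexarotene with limma.

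Tumors with the same replicate number did not deviate together (r over 0.1 in 4 of 12 pairs, -0.352 to 0.349). With a replicate block, 0 genes were called in each comparison, and 0 collagen genes among the 3 groups and 2 between the agonists were at an unadjusted p under 0.05.

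Leaving out each tumor in turn gave 0 to 1 called genes among the 3 groups and for bexarotene, the 1 without MSU-42011 replicate 2. Collagen genes at an unadjusted p under 0.05 numbered 0 to 12 among the 3 groups, 0 to 3 for MSU-42011, 0 to 14 for bexarotene and 1 to 13 between the agonists, lowest without bexarotene replicate 1 except for MSU-42011. The fibrillar median ran from 0.59 to 3.71 for bexarotene and -2.92 to -0.01 between the agonists, the basement membrane median from -0.05 to 0.87 for bexarotene, and that of the others from -0.55 to 0.09 between the agonists. Between the agonists, Col5a1 ran from -2.92 to 0.17, Col8a1 from -4.17 to 0.02 and Col12a1 from -3.57 to 0.31, positive without bexarotene replicate 1.

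With CPM per kilobase of the listed length in place of FPKM, mean ratios were 2.42 in place of 1.64 (Col1a1 to Col1a2), 1.48 for 2.12 (Col4a1 to Col4a2), 0.995 for 0.554 (Col5a1 to Col5a2), 2.21 for 1.54 (Col4a5 to Col4a6), 0.374 for 0.550 (Col3a1 to Col1a1) and 13.8 for 28.9 (Col11a1 to Col11a2). As a percentage of raw counts in place of FPKM, fibrillar collagens had 0.0569 in control and 0.0666 in MSU-42011, basement membrane collagens 0.0692, 0.101 and 0.1 and other collagens 0.294, 0.301 and 0.304 in control, MSU-42011 and bexarotene tumors, in place of 0.0298 and 0.0367, 0.0331, 0.051 and 0.0528, and 0.191, 0.2 and 0.186. Of 863 recomputed values, 815 were labelled as the same. Counts of genes had this label when they changed little, and medians, ratios and shares when they moved by less than the spread between tumors. Single genes had it when they kept their sign and their side of the adjusted threshold. The label therefore does not measure stability of size. Col1a1 kept it for bexarotene against control while falling from 3.55 to 0.71 without bexarotene replicate 1. The cause of the shifts between settings was not tested. The type IX and type XI ratios were added after the data had been seen. For MSU-42011 against control, a difference such as 0.31 for Col1a1 (SE 1.06) could not be told from 0. Without bexarotene replicate 1 in the shared estimate of the spread, its SE was 0.575 and its 95% interval -0.94 to 1.57.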

Other observations

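Of the 8 collagens that were too low to be tested, 5 had their highest count in bexarotene replicate 1. Col17a1, a collagen of hemidesmosomes, had 82 reads in it and 16 in the other 11 tumors together. Col24a1, a fibrillar collagen, had 34 of its 42 reads there, Col23a1, a transmembrane collagen, 55 of 99, Col28a1 56 of 135 and Col2a1 63 of 130. Col19a1, Col26a1 and Col4a3 had 12 reads or fewer in every tumor.

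Col10a1, known from hypertrophic cartilage, and Col22a1, known from tissue junctions, had 46 and 24 reads at most in any tumor and were close to the limit of the test.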
